A study of Homo sapiens with 6 samples.

Results

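A549 is a human lung adenocarcinoma line, and its messenger RNA was compared here with that of the other lines sequenced beside it. The members are the 2 libraries labelled A549 out of 6, taken by their cell line label and set against 2 libraries labelled H1299 and 2 labelled H2030, whatever vector they carried. In each line 1 library carried an empty vector and 1 overexpressed NHLRC1, which encodes the ubiquitin ligase malin. The labels give all 6 cultures as lung cancer lines at passage 5, which were grown close to confluence before total RNA was extracted. Values are FPKM, fragments per kilobase of transcript relative to all mapped fragments of a library. Below, A549 values are given with the empty vector first and the malin vector second, and those of H1299 and H2030 in the same order. In its column header the H2030 malin library is named after HEK293T, a kidney-derived line, although its labels say H2030, so both are called the libraries labelled H2030. The kidney developmental factors SALL1 (9.11 and 9.9 FPKM) and SIX2 (5.27 and 6.28) were present in both. Their highest values in the A549 and H1299 libraries were 0.39 and 0.14. Not every such factor set this pair apart. OSR1 was lower in the pair (0.2 and 0.57) than in A549 (3.53 and 4.33). EYA1 (2 and 1.36) and LHX1 (1.35 and 1.89) were near their H1299 values (1.89 and 1.95, and 1.63 and 2.04). Whether the pair is of kidney origin was not tested.

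The 2 libraries of a line differ in their vector and are not replicates of one condition. No label says that the cultures were independent. The p-values below therefore measure only the spread between these libraries, and 1 line is set against 2. NHLRC1 itself stood at 1.21 and 6.82 FPKM in A549, at 2.85 and 119.2 FPKM in H1299 and, in the libraries labelled H2030, at 0.18 and 3.69 FPKM. Its range in A549 overlapped that of both other lines, and neither contrast passed (limma, adjusted p = 0.236 against H1299 and 0.669 against the libraries labelled H2030). Depth, estimated from the spacing of low values, lay between 8400000 and 10600000 fragments per library, at which 3 fragments on a transcript of 2000 bases correspond to 0.148 to 0.188 FPKM. Of 19903 genes, 11921 and 11861 reached 1 FPKM in the A549 libraries, against 11975 to 13179 in the other 4.

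As background, A549 is known for a defective KEAP1, the protein that marks the transcription factor NRF2 for degradation. NRF2 acts through antioxidant response elements on genes for glutathione and thioredoxin recycling, NADPH supply and the removal of aldehydes and quinones. The line is also known for a deletion on the short arm of chromosome 9 that takes CDKN2A and for a defective SMARCA4. The hepatocyte nuclear factor HNF4A is a regulator of liver and gut epithelium that some lung adenocarcinomas express.

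The label A549 was checked against genes known to mark the line. CDKN2A was at 0.09 and 0 FPKM, CDKN2B at 0 and 0.03, and MTAP at 1.84 and 1.45. The enzyme genes AKR1B10, AKR1C1, AKR1C2, AKR1C3, ALDH1A1, ALDH3A1 and NQO1 were each at 171.8 FPKM or more in both A549 libraries, KRT8 and KRT18 at 920 or more, and SMARCA4 at 2.61 and 3.39. Against the marker list, the fibrinogen genes FGB (0.70 and 0.14 FPKM) and FGG (1.25 and 0.19) and the antitrypsin gene SERPINA1 (0.09 and 0.13) were near 0. Of 18 measured lung markers, 14 were under 1 FPKM in both A549 libraries. The surfactant genes SFTPB, SFTPC and SFTPD and the phosphate transporter gene SLC34A2 were at 0.16 FPKM or less. Others were expressed, among them CAV1 at 167.9 and 218.9 FPKM and ABCA3 at 7.97 and 9.3. Of 21 measured immune, endothelial and fibroblast markers, 18 were under 1 FPKM in both A549 libraries. Their sum was 17.5 and 17.7 FPKM, against 16.0 to 57.5 in the other 4 libraries, and the leukocyte marker PTPRC stood at 0 and 0.02. CD14, another member of that list, went the other way, at 2.28 and 1.47 FPKM in A549 against at most 0.5 elsewhere.

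Across 12184 protein-coding genes with a mean of at least 1 FPKM, A549 stood above all 4 other libraries in 2263 genes (18.6%) and below all 4 in 4077 (33.5%). This rank rule carries no test. At its edge, EMP3 was just inside at 157.7 and 174.6 FPKM against at most 157.5, and TMEM86B just outside at 2.26 and 2.05 against a highest other value of 2.05. On the lower side, TBC1D9B was just inside at 30.0 and 31.3 FPKM against at least 31.3, and RAB3C just outside, at 0 in A549 and in the H1299 empty-vector library. A gap of at least 1 on the log2(FPKM+1) scale separated A549 from the nearest other library in 553 genes above and 473 below.

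A test of A549 against each of the other lines called 1576 genes higher in A549 (12.9%) and 2735 lower (22.4%). A call required both contrasts to have the same sign and an adjusted p under 0.05 in limma on log2(FPKM+1). Both contrasts reached 1 or more in 664 of the higher genes, and -1 or less in 679 of the lower ones. Differences on this scale understate changes of low genes. The share of calls that were higher, 36.6%, depends on the scaling: the median difference over all genes was -0.21, and median-of-ratios scaling raised the A549 differences by a median of 0.23, and the share was then 56.6% (2384 higher, 1830 lower). Without the libraries labelled H2030, A549 against H1299 alone gave 4112 higher and 5114 lower of 11609. Between the 2 A549 libraries, 4 of the genes called higher and 0 of those called lower differed by 2-fold on the FPKM+1 scale. A small spread between libraries of a line favours a call, and genes near 0 in A549 cannot differ 2-fold on this scale. These counts therefore say little about the vector.

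The widest gaps were for keratins, calcium-binding proteins and oxidoreductases that were abundant in A549 and near 0 elsewhere. KRT81, a hair-type keratin, was at 2319 and 2140 FPKM in A549 and at 0.68 to 1.01 in the other 4 libraries. KRT86, its close copy on the same chromosome, was at 39.4 and 33.8 FPKM, and fragments of the pair cannot be told apart with certainty. KRT7, a keratin of simple and glandular epithelium, was at 1302 and 1269 FPKM against at most 1.24. S100A6, a small calcium-binding protein, was at 1512 and 1553 FPKM against at most 0.52, and the limma difference was 9.998 ± 0.09 (SE) from H1299 and 10.12 from the libraries labelled H2030 (adjusted p = 2.03e-07 and 1.88e-07). Its relative S100A4, named for its link to motile and mesenchymal cells, was at 1126 and 1107 FPKM against 1.34 to 4.28. KYNU, the kynureninase of tryptophan breakdown, was at 271.8 and 280.4 FPKM against at most 0.29. CXCL5, a neutrophil-attracting chemokine, was at 180.5 and 205.4 FPKM against at most 0.26, and CYP24A1, the hydroxylase that inactivates vitamin D, at 269.2 and 226.1 against at most 0.77.

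**Figure D1:**
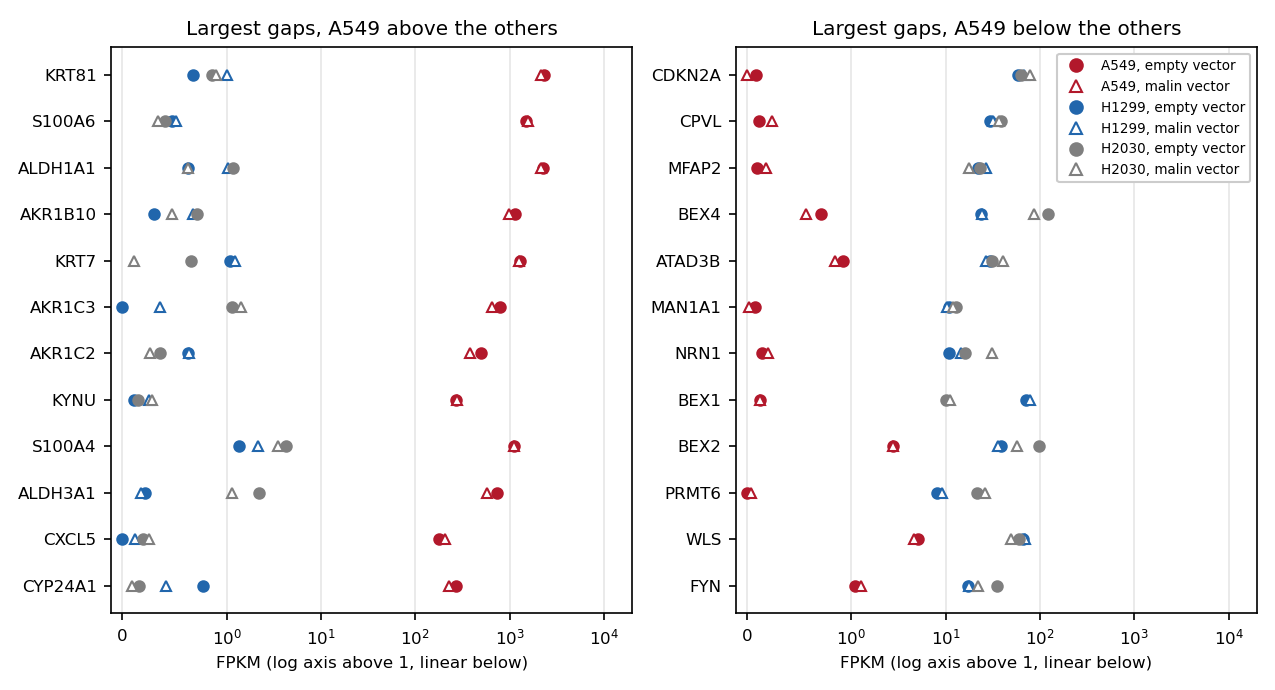
FPKM of the 12 genes per direction with the widest gap between A549 and the nearest other library; each point is 1 library, filled circles carry the empty vector and open triangles malin, and the axis is logarithmic above 1 and linear below. A549 (red) lies at 180.5 FPKM or more in the left panel, and at 5.11 or less in the right panel, where the other libraries lie at 8.17 or more.

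The widest gap below the other libraries was that of CDKN2A, which encodes the cell cycle inhibitor p16. It was at 0.09 and 0 FPKM, against 58.9 and 67.9 in H1299 and 63.2 and 78.8 in the libraries labelled H2030. CPVL, a carboxypeptidase gene, was at 0.12 and 0.24 FPKM against 29.8 to 38.4, and MFAP2, a microfibril component, at 0.10 and 0.19 against 17.7 to 26.9. MAN1A1, a Golgi mannosidase of glycan trimming, was at 0.08 and 0.02 FPKM against 10.4 to 12.9. NRN1, a neurite growth factor gene, was at 0.15 and 0.20 FPKM against 10.8 to 31.4. PRMT6, an arginine methyltransferase, was at 0 and 0.04 FPKM against 8.17 to 26.1. WLS, which escorts WNT ligands to the cell surface, was still measurable at 5.11 and 4.63 FPKM, against 49.7 to 69.8 elsewhere. FYN, a SRC-family kinase, was at 1.08 and 1.27 FPKM against 17.1 to 35.0. BEX1, BEX2 and BEX4, neighbouring small genes of chromosome X, were at 0.13 and 0.13, 2.79 and 2.78, and 0.71 and 0.57 FPKM, against at least 9.97, 35.8 and 23.8 elsewhere. ATAD3B was at 0.92 and 0.84 FPKM against 26.6 to 40.4, though fragments can be shared with its close copy ATAD3A.

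By level, 90 genes (0.739%) were on in A549, at 5 FPKM or more in both libraries, and under 1 FPKM in the other 4. The reverse held for 34 genes (0.279%). Besides those above, MALL, a raft-associated membrane protein gene, was on at 110.3 and 101.5 FPKM against at most 0.48, and ABCC2, an export pump for conjugates, at 110 and 112.6 against at most 0.97. On the low side, FLNC, the muscle filamin gene, was at 0.82 and 0.80 FPKM against 12.5 to 70.5. Of the 34 low genes, 5 lie on chromosome 6 and 5 on chromosome X, which hold 631 and 445 of the 12184 tested genes.

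The most uniform group was the NRF2 targets, of which 33 of 36 tested members were called higher in A549 and 0 lower. The median difference was 2.81, against -0.21 over all genes tested, of which 12.9% were called higher and 22.4% lower. In all 36 tested members both A549 libraries lay above the other 4. The list was chosen with earlier results of these data known. Together the 37 measured members took 5.43% and 4.99% of summed FPKM in the A549 libraries and 0.592% to 0.622% in the other 4. Much of this was the ferritin genes FTL and FTH1, which store iron: these took 3.13% and 2.89% in A549 and 0.179% to 0.287% elsewhere. FTL alone stood at 9810 and 9069 FPKM, the most abundant gene of both A549 libraries, though ferritin genes have many processed copies.

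The short sequences below are shown because they place the element bound by NRF2 with its partners in the promoters of called members. Of 26 NRF2 targets with a promoter in the RefSeq table (GRCh38.p14), 8 (30.8%) held the core TGACNNNGC on either strand within 250 bases before to 50 after the start. All tested genes with a promoter held it in 15.0% (1507 of 10056), genes called higher in 15.7% and genes called lower in 15.0%. Among the genes on in A549 alone and low in A549 alone by the level rule, 6 of 61 (9.84%) and 6 of 28 (21.4%) promoters held it. Capitals mark the core or its reverse complement, and each window runs 5′ to 3′ on the strand of the gene. The matches begin 34 bases before the start in GCLM (chr1:93909431-93909489, minus strand), 99 in TXNRD1 (chr12:104215655-104215713, plus), 137 in ME1 (chr6:83431155-83431213, minus), 122 in GPX2 (chr14:64942834-64942892, minus) and 159 in CBR1 (chr21:36069840-36069898, plus). A match describes letters and does not show binding.
GCLM: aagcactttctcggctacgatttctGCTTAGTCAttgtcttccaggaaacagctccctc
TXNRD1: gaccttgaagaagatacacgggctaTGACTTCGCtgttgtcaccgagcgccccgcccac
ME1: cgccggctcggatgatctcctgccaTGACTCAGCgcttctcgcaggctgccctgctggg
GPX2: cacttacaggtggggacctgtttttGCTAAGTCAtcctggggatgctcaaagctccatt
CBR1: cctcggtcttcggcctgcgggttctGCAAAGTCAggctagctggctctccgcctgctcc

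Among genes of glutathione supply, GCLM and GCLC, the 2 subunits of the rate-limiting ligase, were at 66.9 and 60.9 and at 103 and 85.3 FPKM in A549, against at most 16.4 and 19.8 elsewhere. GSR, which regenerates reduced glutathione, was at 147 and 136 FPKM against at most 44.5. GPX2, a glutathione peroxidase of epithelium, was on in A549 alone and differed between its libraries, at 82.8 with the empty vector and 32.2 with malin, against at most 0.10. Of the thioredoxin arm, TXNRD1 was at 746 and 784 FPKM against at most 114, and SRXN1 at 232 and 225 against at most 39.9. These 5 genes of both arms other than GPX2 were also expressed in the other lines, at lower levels.

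Enzymes of the pentose phosphate pathway and malic enzyme were also called higher. PGD, the NADPH-producing dehydrogenase of that pathway, was at 720 and 589 FPKM against at most 139, TKT, its transketolase, which makes no NADPH, at 754 and 660 against at most 126, and ME1, the cytosolic malic enzyme, at 53.2 and 47.9 against at most 13.2. The members that did not pass were PRDX1 (1054 and 1008 FPKM against 367 to 761), SLC7A11 (42.2 and 48.2 against 2.10 to 38.5) and CBR3 (7.31 and 7.48 against 3.17 to 7.25). SLC7A11, the cystine importer, thus lay close to the H2030 empty-vector library.

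Several aldo-keto reductases and aldehyde dehydrogenases were abundant in A549 and near 0 elsewhere; AKR1B10, AKR1C2, AKR1C3, ALDH1A1 and ALDH3A1 were named for their wide gaps. AKR1B10, a reductase of retinal and other aldehydes, was at 1144 and 982.4 FPKM against at most 0.72, a limma difference of 9.48 ± 0.16 (SE) from H1299 (adjusted p = 9.03e-07). The steroid and aldehyde reductases AKR1C3 and AKR1C2 were at 786.1 and 652.1 and at 494.7 and 383.9 FPKM, against at most 1.42 and 0.64. AKR1C1 was at 196.3 and 171.8 FPKM. The AKR1C genes, and AKR1B10 with AKR1B15, are near copies, so the split between them is uncertain. ALDH1A1, the retinal dehydrogenase often used to mark stem-like cells, was at 2243 and 2133 FPKM against at most 1.17, and ALDH3A1 at 740.9 and 582 against at most 2.23. Of 29 tested aldehyde, aldo-keto and conjugating enzymes outside the NRF2 list, 15 were called higher and 3 lower. Over all genes these shares were 12.9% and 22.4%, and the median difference of the list was 1.27. The 3 lower enzymes were ALDH1A2 (0 in both A549 libraries, against 1.47 to 4.65 FPKM), GSTA4 and GSTM2.

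**Figure D2:**
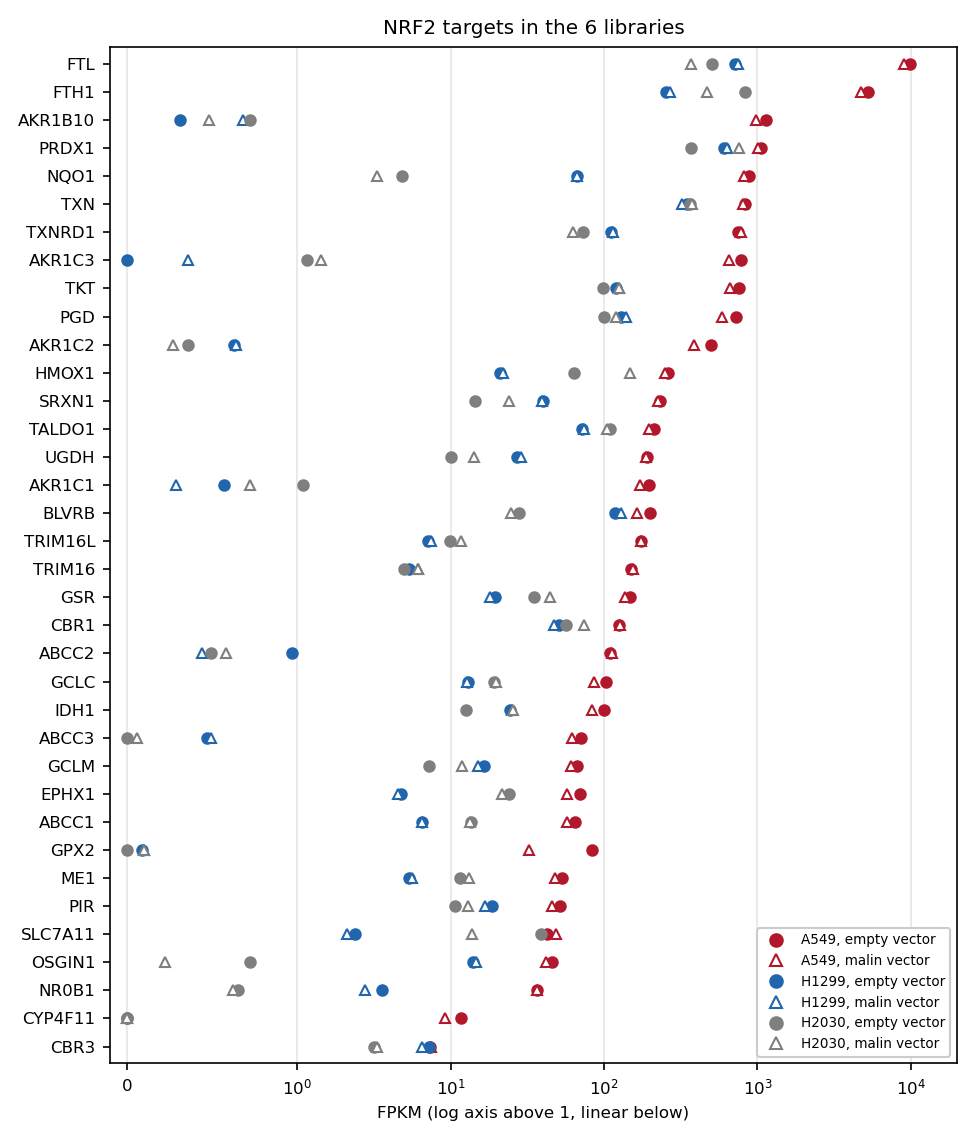
FPKM of 36 of the 37 measured NRF2 targets, ordered by their A549 mean; points are single libraries with the empty vector (filled circles) or malin (open triangles), on an axis that is logarithmic above 1 and linear below. In most genes the red A549 points lie far to the right of the others; PRDX1, SLC7A11 and CBR3, which did not pass, lie close to at least 1 other library.

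Transcription factors of endoderm split. ELF3, an epithelial ETS factor, was at 62.6 and 35.3 FPKM in A549 against at most 0.04 elsewhere. FOXA2 was at 10.2 and 10.2 FPKM against at most 0.36, and NR5A2 at 5.48 and 5.87 against at most 0.90. These were among 4 factors called higher. GATA6 was called lower, at 0.73 and 0.72 FPKM, against 7.23 and 7.5 in H1299 and 22.4 and 14.9 in the libraries labelled H2030. NKX2-1, the lung lineage factor, was also called lower and is listed at 0 in both A549 libraries, against 0.60 to 3.78 FPKM. A further 8 of 14 tested factors were not called, and over all genes 12.9% were called higher and 22.4% lower. HNF4A was under the filter, at 2.53 and 2.44 FPKM in A549 and listed at 0 in the other 4 libraries.

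Secreted proteins typical of liver were low in absolute terms. Of 36 measured members 24 were under 1 FPKM in both A549 libraries, and 4 were tested. VTN, the adhesive plasma protein vitronectin, was called higher at 12.2 and 7.48 FPKM against at most 0.38, as was CP, the copper carrier ceruloplasmin, at 3.08 and 1.94 against at most 0.90. APOM was called lower and SERPINA1 was not called. Fibrinogen alpha, FGA, differed between the A549 libraries, at 3.88 and 0.55 FPKM, against at most 0.06 elsewhere. Among liver-type metabolic genes, AADAC, an esterase of the endoplasmic reticulum, was at 7.37 and 7.09 FPKM against at most 0.06. CPS1, the first enzyme of the urea cycle, was at 8.18 and 5.85 FPKM against at most 2.15. The later urea cycle enzyme ASL (7.19 and 8.09 FPKM against 9.97 to 25.2) and the arginase ARG2 (8.63 and 9.28 against 23.9 to 32.4) were called lower. These counts were 2 higher and 2 lower of 6 tested, against 12.9% and 22.4% of all genes.

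GCNT3, a mucin-type glycan branching enzyme, was at 81.2 and 85.9 FPKM against at most 0.14. HAVCR1, a surface receptor known from injured kidney tubules, was at 29.6 and 36.1 FPKM and is listed at 0 in the other 4 libraries. MMP7, a matrix protease of epithelia, was at 18.7 and 7.99 FPKM against at most 0.10, and KMO, the kynurenine hydroxylase, at 5.76 and 5.68 against at most 0.33. Each of these 4 genes was thus at 0.33 FPKM or less outside A549, and MMP7 was lower in the malin library.

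Of 25 tested epithelial genes 11 were called higher and 2 lower, against 12.9% and 22.4% of all genes. Their median difference was 0.82. KRT8 and KRT18, the paired keratins of simple epithelium, were at 1234 and 920.5 and at 1334 and 973.6 FPKM, against at most 225.9 and 726 elsewhere. KRT19 was at 42.0 and 48.1 FPKM against at most 0.07. SPINT2, an inhibitor of membrane proteases, was at 147.1 and 158.3 FPKM against at most 36.7. CDH1, the epithelial cadherin, was not called: it was at 3.27 and 1.67 FPKM in A549, 0.02 and 0 in H1299, and 2.56 and 2.71 in the libraries labelled H2030. EPCAM was likewise not called, and ST14 and RAB25 were at 0.03 FPKM or less in both A549 libraries. The 2 lower genes were CGN and PKP2, of tight junctions and desmosomes.

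Of 28 tested mesenchymal genes 9 were called higher and 5 lower, against 12.9% and 22.4% of all genes. TGFBI, a matrix protein induced by TGF-beta, was at 369.4 and 472.1 FPKM, against 44.5 and 42.0 in H1299 and 2.07 and 0.11 in the libraries labelled H2030. COL5A2, a fibrillar collagen chain, was at 57.4 and 56.2 FPKM against at most 2.26. LOX, the collagen cross-linking oxidase, was called lower at 0.14 and 0.08 FPKM against 4.33 to 10.9. TWIST1 and ZEB2, transcription factors of mesenchymal change, were called lower, at 1.44 and 1.48 and at 1.21 and 1.32 FPKM. VIM, the mesenchymal filament vimentin, was not called, at 614 and 755 FPKM between H1299 (1885 and 1905) and the libraries labelled H2030 (416 and 352).

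Among mucin-type secretory genes 3 of 6 tested members were called higher and 0 lower, against 12.9% and 22.4% of all genes. Besides GCNT3 these were AGR2, a disulfide isomerase of mucus-secreting cells, at 50.9 and 33.5 FPKM and listed at 0 elsewhere, and CEACAM6, a surface adhesion protein, at 4.95 and 1.92 against at most 0.04. S100P stood at 22.7 and 16.4 FPKM but did not pass, since the H2030 empty-vector library held 12.3. TM4SF1 was higher in A549 than in the libraries labelled H2030 and lower than in H1299, at 136.3 and 160 FPKM against 292.3 and 297 in H1299. The gel-forming mucin genes MUC2 and MUC5B were at 0.09 FPKM or less in A549.

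Cytokine and chemokine genes contained 12 members called higher and 0 lower of 22 tested, against 12.9% and 22.4% of all genes. Their median difference was 1.81. Without the libraries labelled H2030 the counts were 15 higher and 7 lower of 22. In that fit 35.4% of all genes were higher and 44.05% lower. The absence of lower members thus holds only where both contrasts are required. CXCL1 was at 26.2 and 22.9 FPKM against at most 0.95, IL8, which encodes the neutrophil chemokine CXCL8, at 11.4 and 11.2 against at most 0.30, and CCL2, a monocyte chemokine, at 24.3 and 24.1 against at most 1.07. IL18, a cytokine released after inflammasome cleavage, was at 44.8 and 48.3 FPKM against at most 1.49. The macrophage growth factor gene CSF1 was at 31.4 and 35.9 FPKM against at most 2.78. Not all NF-kB-linked genes were highest in A549: CXCL2 was at 15.2 and 15.8 FPKM against 83.1 and 83.2 in H1299, and RELB at 15.4 and 17.4 against 45.6 and 44.0. Several cytokines were low in all lines, such as IL6, at 0.89 and 0.87 FPKM in A549.

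Complement genes were called higher in 7 of 11 tested and lower in 0, against 12.9% and 22.4% of all genes. Their median difference was 1.93. C3, the central component, was at 11.6 and 8.66 FPKM against at most 0.56, and C1S, a protease of the classical pathway, at 28.3 and 22.2 against at most 1.31. CLU, the chaperone clusterin, was at 277.5 and 246.9 FPKM against 12.9 to 36.4. The membrane regulators differed: CD46 was called higher, whereas CD55 and CD59 were not called.

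Of the antigen presentation genes 3 were called higher and 4 lower among 16 tested, shares near the 12.9% and 22.4% of all genes. Among the lower ones were class I heavy chains. HLA-B was at 8.23 and 9.71 FPKM, against 85.7 and 82.3 in H1299 and 130.9 and 107 in the libraries labelled H2030. HLA-C was at 33.2 and 38.1 FPKM against at least 66.5, and HLA-E at 18.9 and 19.9 against at least 24.6. These genes lie on chromosome 6 and are polymorphic with similar copies, so their levels are uncertain. B2M, the shared light chain, was not called, at 221 and 254 FPKM against 237 to 363. PSMB9, an immunoproteasome subunit encoded in the same region, was called higher at 11.9 and 9.83 FPKM against at most 5.07, as were TAPBP and PSMB10.

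Ligands of the EGF receptor family were expressed in A549, as was the receptor EGFR. AREG (amphiregulin) was at 69.4 and 62.7 FPKM against at most 0.44, and EREG (epiregulin) at 47.4 and 62.2 against at most 0.11. NRG1, the neuregulin that binds ERBB3 and ERBB4, was at 65.0 and 68.0 FPKM against at most 6.66. EGFR itself was at 26.6 and 36.0 FPKM, against 10.1 and 8.10 in H1299 and 3.92 and 3.89 in the libraries labelled H2030. ERBB3 was called lower, at 0.51 and 0.53 FPKM. MET, the receptor for hepatocyte growth factor, was at 59.4 and 71.1 FPKM against 11.96 to 25.3. AXL, the receptor for GAS6, was not called, at 63.7 and 95.4 FPKM, below H1299 (306 and 286) and above the libraries labelled H2030 (1.06 and 0.64). Of 29 tested receptor and ligand genes 11 were called higher and 5 lower, against 12.9% and 22.4% of all genes.

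Among TGF-beta family members, IGF-binding proteins and WNT antagonists, 11 of 23 were called higher and 4 lower. Over all genes these shares were 12.9% and 22.4%, and the median difference of the list was 1.21. IGFBP4, which holds insulin-like growth factors, was at 981.8 and 1064 FPKM against 5.59 to 9.63. IGFBP3, IGFBP6 and IGFBP7 were also called higher, at 40.5 and 42.1, 71.2 and 59.1, and 26.5 and 34.1 FPKM. GDF15, a stress-induced ligand, was at 59.9 and 45.4 FPKM against at most 2.05. DKK1, a secreted WNT antagonist, was at 118.6 and 125.6 FPKM against at most 11.3. BMP2 was called lower, at 0.06 and 0.06 FPKM against 0.44 to 8.91.

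Matrix receptors and laminins held 9 members called higher and 4 lower of 21, against 12.9% and 22.4% of all genes. ITGB1, the shared beta chain of many integrins, was at 717.5 and 779.5 FPKM, against 239.2 and 245.3 in H1299 and 94.8 and 81.2 in the libraries labelled H2030. ITGB5 was at 160 and 139.3 FPKM against at most 31.5, and LAMA5, a laminin of epithelial basement membrane, at 42.9 and 38.7 against at most 7.18. LAMA4, a laminin of vessels and mesenchyme, was called lower at 0.15 and 0.07 FPKM against 1.75 to 8.53. ITGA3 was not called, since A549 (120.8 and 145.2 FPKM) overlapped H1299 (123.5 and 131.4).

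**Figure D3:**
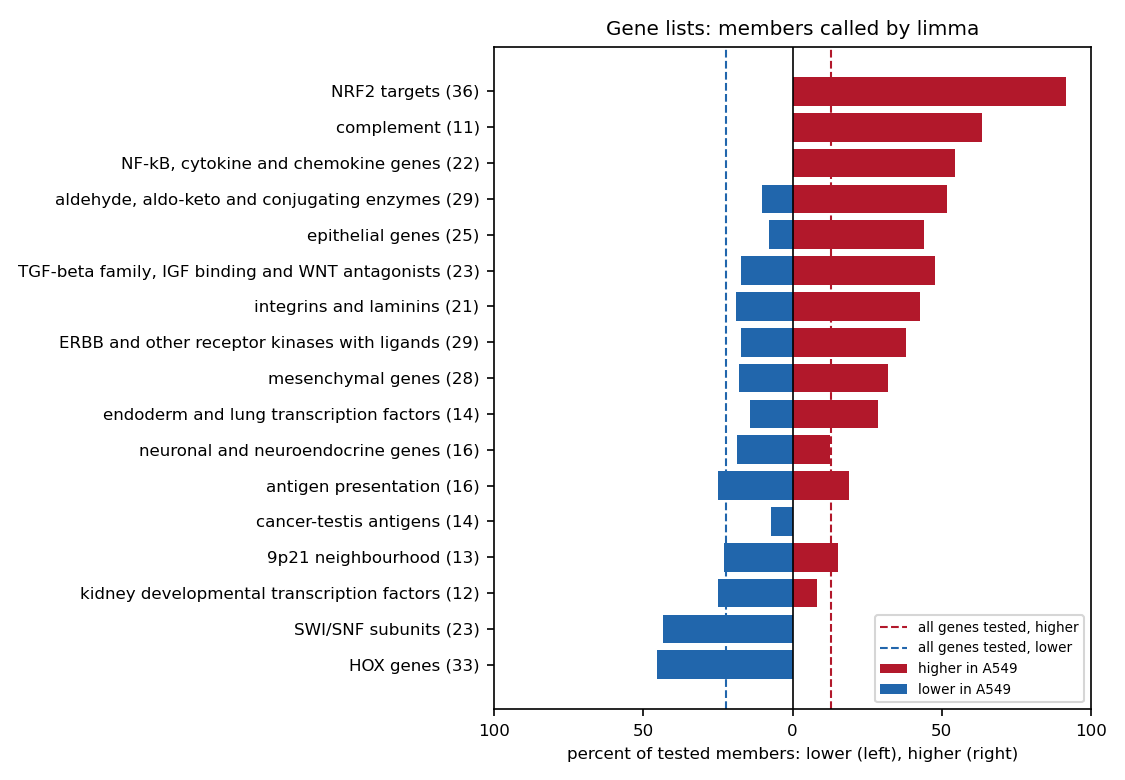
Percent of tested members called lower (blue, left) and higher (red, right) in A549 by limma in gene lists with at least 10 tested members, whose number follows the name; dashed lines give 12.9% higher and 22.4% lower over all genes tested. NRF2 targets have 33 of 36 higher, and SWI/SNF subunits and HOX genes have 0 higher with 10 of 23 and 15 of 33 lower.

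Against H1299 alone, with the libraries labelled H2030 left out, 35 of 36 NRF2 targets were higher and 0 lower. For complement genes the counts were 8 higher and 1 lower of 10, for the aldehyde, aldo-keto and conjugating enzymes 20 and 4 of 27, and for SWI/SNF subunits 3 and 18 of 23. These shares stand beside 4112 higher (35.4%) and 5114 lower (44.05%) of 11609 genes in that fit.

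Developmental HOX genes ran the other way. Of 33 tested members 15 were called lower and 0 higher, with a median difference of -1.24, against 22.4% lower, 12.9% higher and a median of -0.21 over all genes; median-of-ratios scaling gave 14 lower and 1 higher. HOXB2 was at 1.36 and 0.57 FPKM, against 67.4 and 69.7 in H1299 and 7.20 and 5.96 in the libraries labelled H2030. HOXB4 was at 0 and 0.05 FPKM against 1.90 to 24.3, and HOXA9 at 0.50 and 0 against 7.84 to 18.4. HOXD13, the most distal gene of its cluster, was at 0.26 and 0.04 FPKM against 1.83 to 31.8. HOXB7 and HOXC13 were not called, at 12.7 and 11.4 and at 7.68 and 7.07 FPKM in A549. Without the libraries labelled H2030, 16 of 26 tested members were lower and 6 higher, against 44.05% and 35.4% of all genes in that fit.

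Chromatin remodellers of the SWI/SNF family were called lower in 10 of 23 tested and higher in 0, against 22.4% and 12.9% of all genes, with a median difference of -0.50 against -0.21. SMARCB1, a core subunit, was at 38.7 and 35.1 FPKM against 83.7 to 99.4. DPF1, a subunit of neural complexes, was at 1.57 and 1.54 FPKM against at least 5.52, and PHF10 at 19.0 and 15.7 against at least 26.2. SMARCA4, the catalytic ATPase, was not called, because H1299 was also low (4.27 and 4.03 FPKM), while the libraries labelled H2030 held 45.9 and 63.6. SMARCA2, the other ATPase, was at 5.69 and 6.5 FPKM against 4.61 to 5.52 and was not called.

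Around CDKN2A on chromosome 9, 13 neighbourhood genes were tested and 3 were called lower: CDKN2A, CDKN2B (0 and 0.03 FPKM against 3.10 to 13.2) and MTAP, an enzyme of methionine salvage (1.84 and 1.45 against 11.5 to 25.8). The flanking genes KLHL9, FOCAD and MLLT3 were at 14.9 and 15.1, 11.9 and 13.4, and 5.89 and 5.63 FPKM and were not called. PTPLAD2, also known as HACD4, was called higher at 3.20 and 2.93 FPKM against at most 0.18, as was DENND4C. The counts of 3 lower and 2 higher of 13 tested are near the shares of all genes (22.4% and 12.9%).

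Markers of other lineages separated A549 from only 1 of the other lines in several cases. Of 14 tested cancer-testis antigens, 1 was called lower and 0 higher, against 22.4% and 12.9% of all genes. MAGEA4 was at 0.12 and 0.12 FPKM in A549, 492.9 and 500.2 in H1299, and 0.15 and 0.13 in the libraries labelled H2030. PRAME was at 80.9 and 79.1 FPKM, between H1299 (135 and 140) and the libraries labelled H2030 (11.6 and 10.2). MAGEA genes are close copies, and their split is uncertain. Of 16 neuronal genes 2 were called higher and 3 lower, and of 12 kidney developmental factors 1 and 3, which are near the shares of all genes (12.9% and 22.4%). Among the neuronal genes NEFM, a neurofilament, was at 0.12 and 0.18 FPKM against 2.04 to 52.6, and TUBB3 was not called, at 137.7 and 172. L1CAM, 1 of the 2 higher neuronal genes, was at 2.73 and 3.31 FPKM against at most 0.74. The kidney factor called higher was OSR1, at 3.53 and 4.33 FPKM against at most 0.57, and EYA1, 1 of the lower ones, was listed at 0 in A549. SALL1 and SIX2 were not called, since H1299 was also low. Of the lung markers tested, 1 of 6 was higher (CAV1) and 1 lower (LAMP3).

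Genes called lower were unevenly spread over the chromosomes. On chromosome 6, 59.4% of 631 tested genes were called lower and 4.75% higher, against 22.4% and 12.9% over all genes. The median difference there was -0.84, and it was -0.86 from H1299 and -0.85 from the libraries labelled H2030. In windows of 20 Mb along the chromosome, between 45.8% and 73.8% of tested genes were lower. Chromosome 21 had 50% of 114 genes lower, with a median of -0.64, and chromosome 4 had 33.9% of 449. Chromosomes 20, 17 and 2 had the largest shares called higher, at 21.04%, 20.8% and 20.7%. With median-of-ratios scaling chromosome 6 had 45.5% lower and chromosome 21 had 28.95%, against 15.1% of all genes. Without the libraries labelled H2030 the share lower was 81.7% on chromosome 6 and 73.6% on chromosome 21, against 44.05% of all genes. Whether DNA copy number differs between the lines was not measured in these data.

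**Figure D4:**
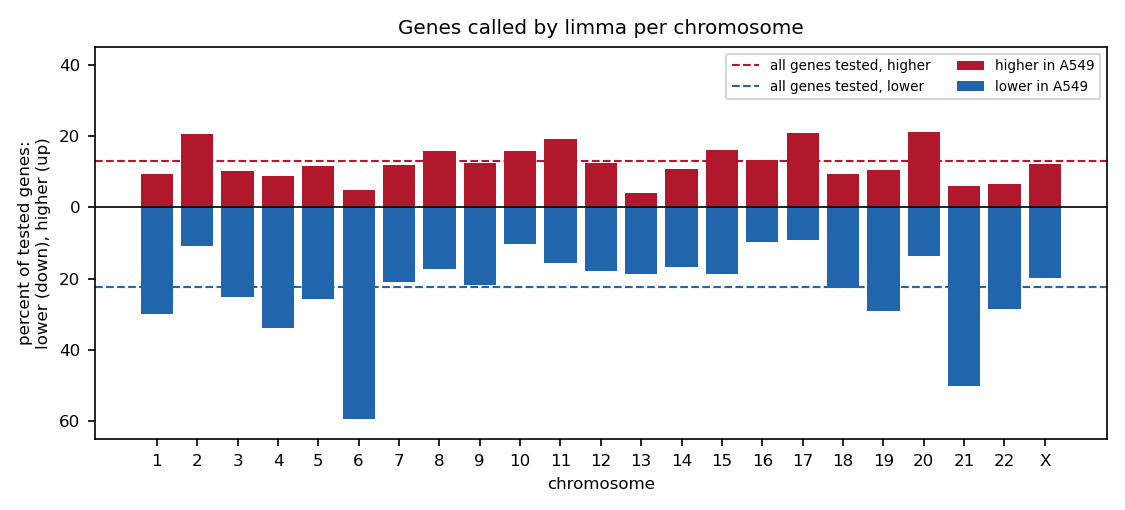
Percent of tested genes called higher (red, up) and lower (blue, down) in A549 by limma on each chromosome, with dashed lines at 12.9% and 22.4% for all genes tested. Chromosomes 6 and 21 have the longest blue bars, at 59.4% and 50%.

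Runs of adjacent tested genes called in 1 direction were listed where they held 6 or more. The single run of higher genes was KRT80, KRT7, KRT86, KRT81, KRT8 and KRT18 in the type II keratin cluster and its neighbour on chromosome 12, with a median difference of 4.20. The longest run of lower genes held 11, from ATAD3B to TMEM52 at the end of chromosome 1, with a median of -1.05. On chromosome 6 there were 10 such runs, 1 of which held MAN1A1 and another FYN, LAMA4 and HDAC2. On chromosome 19 a run of 6 zinc finger genes from ZNF708 to ZNF43 had a median of -1.73. Tested genes that are adjacent here can have untested genes between them.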

How the data were processed

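The deposited unit is FPKM per gene, per the file headers. Adapters, quality, alignment and quantification tools are listed in the submitters' processing notes as cutadapt, FastQC, STAR and Cufflinks, with build hg38. Versions, annotation and strand setting are not given in the sources used here, so overlapping or antisense genes can share fragments. FPKM depends on the library total, so abundant genes shift all others.

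Tables of 19903 genes were joined by Entrez identifier, and 35 of 37 damaged symbols were replaced. RefSeq (GRCh38.p14) matched 19770 genes, 17541 of them protein coding, and gave positions and promoters. Log2(FPKM+1), a pseudocount of 1, of 12184 protein-coding genes with a mean of at least 1 FPKM entered lmFit and trended eBayes of limma 3.58.1 (R 4.3.3), with cell line as the factor. Contrasts of A549 with each other line were adjusted by Benjamini-Hochberg at 0.05, on 3 residual and a median of 3.27 prior degrees of freedom. Both contrasts share the A549 libraries. On simulated data with 4000 changed genes of 12184, recovery at log2 changes of 0.5, 1 and 2 was 0%, 88.3% and 99.5%; with 200 changed, 0%, 0% and 91.5%. False calls were 0 by construction: outside the changed genes the simulated lines had equal means, so none could arise. The recovery values likewise carry no error in the line means. Tables were made with Python 3.11.15, pandas 2.3.3 and numpy 2.4.6.

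Depth was estimated from genes with a single transcript between 600 and 2000 bases long: 81.4% to 82.9% of their low values were no more than 0.2 away from a whole fragment number (40% by chance if the step had been preset), while step and the 100 bases subtracted from the length were chosen from these values. No count test was run, and floors cover counting error only.

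Members and the 23 gene lists were chosen with earlier results of these data known. Named were NHLRC1, the 12 widest gaps per direction, up to 8 genes per level rule, and in each list up to 6 members by absolute difference. Some, though not all, members that a count of 5 or fewer refers to were named as well. A few results are not reported here. Genes of the sex-specific chromosome were left out of naming. Other genes in the text were chosen after their values were seen. The alternatives tried were no filter or 5 FPKM, pseudocounts of 0.1 and 5, median-of-ratios and quantile scaling, vector as a block, all gene classes, no intensity trend, a 2-group fit, other level limits, and leaving out each line or library.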

Additional observations from a re-analysis of the deposited data

How the results depend on the processing

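With median-of-ratios scaling 2384 genes were higher, and in a 2-group fit of A549 against the other 4 libraries 878 were higher and 1301 lower; the cause was not tested. Without the libraries labelled H2030, 4112 were higher and 5114 lower, 4640 stood above the rest, 247 were on in A549 alone and 142 low in A549 alone. Without H1299 these values were 2461, 5137, 3523, 163 and 246, and 6679 genes stood below the rest; fewer lines must then agree in sign. Leaving out 1 library at a time gave 1097 to 1973 genes higher and 1783 to 3455 lower. The lower count fell by over 1.5 times without either A549 library (1809 and 1816) or the H1299 malin library (1783), each with fewer samples in the fit. Genes on in A549 alone numbered 48 with a mean of at least 5 FPKM and 56 with 10 FPKM as the limit for on. Genes low in A549 alone numbered 22 with quantile normalization, 9 with 10 FPKM for on and 21 with 0.5 FPKM for low. With vector as a block, which pairs the libraries across lines by vector, 1520 were higher and 2649 lower; of the main calls 1503 and 2591 were kept. Among named genes, without the libraries labelled H2030 TM4SF1, PSMB8 and TUBB3 turned to -0.99, -0.80 and -0.34, and without H1299 TUSC1 turned to -0.40 and NHLRC1 to 0.82. NHLRC1 was at 0.14 without the A549 empty-vector library and 0.47 without the H1299 malin library (-2.02 to 0.47 over single libraries left out). A fragment number of 3 limits genes under about 0.2 FPKM, so levels there cannot be told from 0.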

Other observations

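Several further genes on in A549 alone were chosen after their values were seen. RSPO3, an enhancer of WNT signalling, was at 74.4 and 84.6 FPKM against at most 0.15, and the complexin gene CPLX2 at 166.5 and 83.7 against at most 0.82. SRGN, a proteoglycan of secretory granules, was at 46.1 and 49.8 FPKM against at most 0.41, and PAPPA, a protease that cleaves IGFBP4, at 21.3 and 27.5 against at most 0.11. LTBR, the lymphotoxin receptor, was at 65.2 and 59.6 FPKM against at most 0.61. PTGS2, the inducible cyclooxygenase, was at 15.8 and 10.9 FPKM against at most 0.39. NNMT, a nicotinamide methyltransferase, was at 51.5 and 51.6 FPKM against at most 0.25, and the NAD-cleaving surface enzyme genes CD38 and BST1 at 6.33 and 5.41 and at 7.30 and 9.13, against at most 0.15 and 0.81. The imprinted, overlapping genes SNRPN and SNURF were at 30.0 and 33.4 and at 35.5 and 42.4 FPKM, against at most 0.10 in the other 4 libraries.

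Among genes low in A549 alone, also chosen after their values were seen, the chromatin organiser gene SATB1 was at 0 and 0.02 FPKM against 5.12 to 6.87. TIAM1, an activator of RAC, was at 0.31 and 0.19 FPKM against 5.31 to 6.5. The zinc finger genes ZNF100 and ZNF83 on chromosome 19 were at 0 and 0 and at 0.22 and 0.04 FPKM, against at least 5.06 and 6.04.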
